A study of Mus musculus with 12 samples.

Results

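Neat1, Malat1, Rn7sk (7SK) and Gm26917 are noncoding RNA genes that were followed here across 12 RNA libraries from mouse embryonic stem cells. They were chosen by name, as 4 of 38071 genes with counts (55266 are annotated), with earlier results on their levels in these libraries known, so those levels are described and not tested. Their transcript counts were summed per gene and scaled to all gene counts of a library, as CPM.

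Neat1 is the RNA scaffold of paraspeckles, nuclear bodies that assemble on its long isoform with the proteins NONO, SFPQ and PSPC1. Malat1 lies next to it in the genome and collects in nuclear speckles, which are rich in splicing factors. Malat1 and the long isoform of Neat1 end without an ordinary poly(A) tail: RNase P cuts the primary transcript before a tRNA-like structure, and a triple helix protects the new 3′ end. Rn7sk encodes 7SK, a short RNA polymerase III product that holds the elongation kinase P-TEFb (CDK9 with a cyclin T) inactive through HEXIM proteins, with LARP7 and the capping enzyme MEPCE as its stable partners. Gm26917 is annotated as a long noncoding RNA, and no role is given to it here.

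All cells were E14 embryonic stem cells carrying 2C::3xtbGFP, a green fluorescent (tbGFP) reporter for the rare cells that switch on genes of the 2-cell embryo. All groups grew on gelatin with serum and LIF, were plated without CHIR99021 and PD0325901, the 2 inhibitors present during expansion, and were collected at 48 h. Sorbitol, which makes the medium hyperosmotic, was present for 0 h, 6 h or 24 h, and at each time tbGFP-positive and tbGFP-negative cells were sorted, with 2 libraries in each of the 6 groups. Since cells were sorted at collection, those that were tbGFP-positive at 6 h or 24 h need not have been so at 0 h. The labels do not say whether the 2 libraries of a group came from separate cultures, nor whether the line is 1 clone. Spreads and p-values therefore measure the spread between these libraries, which may be technical.

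Libraries held 2306870 to 7900178 counts. All 8 stem cell markers had counts in every group, with 6005 to 9158 CPM in sum. The 10 markers of the 2-cell-like state summed to 25178 to 49112 CPM in tbGFP-positive libraries. In tbGFP-negative libraries they summed to 16.9 to 42.5 CPM at 0 h, 45.2 to 54.1 CPM at 6 h and 857 to 888 CPM at 24 h. Of the 10 markers, 5, 6 and 10 had counts there at these times. The part of this rise in the results on tbGFP-negative cells at 24 h was not tested. The 12 markers of other cell types summed to 64.1 to 128 CPM in tbGFP-positive libraries and 37.7 to 82.1 CPM in tbGFP-negative libraries. The 2 tbGFP-positive libraries at 6 h had counts for the fewest genes, 17545 and 17445. Next came tbGFP-positive replicate 2 with 18600 and tbGFP-negative replicate 1 with 18674, both at 0 h, while the other 8 libraries had 23379 to 26069. The mitochondrial ribosomal RNA mt-Rnr2 had 22624 and 3415 CPM in the tbGFP-positive libraries at 6 h. These 4 libraries stood apart, and the part of this in the results on their groups was not tested. Without tbGFP-positive replicate 2 at 0 h, the fitted log2 fold change between fractions at 0 h, described below, was -1.22 for Neat1, 0.34 for Malat1, 0.94 for Rn7sk and 0.61 for Gm26917. Without tbGFP-negative replicate 1 at 0 h it was -0.96, 0.02, 0.68 and 0.80 for the same RNAs.

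What the deposited counts can see differed between the 4 RNAs. The files count reads per annotated transcript. Of 35022 transcripts without a base of their own on their strand, 14 had any count, 4234 in all. Of 1696 transcripts with bases of their own on their strand but none once both strands were considered, 0 had counts. Counts thus came almost wholly from bases that belong to 1 annotated transcript, called own bases below. This holds for the other genes named below as well, and for most of them own bases are not given. For a gene with several transcripts, a change of the whole gene and a shift between its transcripts cannot be told apart.

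Each RNA was measured through a single transcript in all 12 libraries. Neat1 (ENSMUSG00000092274.3, chr19:5824708-5845478, minus strand, GRCm38) was counted only on its long isoform of 20771 bases, of which 17047 were its own. Of those own bases, 16888, or 99.1%, lay beyond the end of the short isoform of 3004 bases. The short isoform had 0 own bases and 0 counts, so its level is not measured by these files, and "Neat1" below means the long isoform. Malat1 (ENSMUSG00000092341.3, chr19:5795690-5802672, minus strand) lies 22035 bases from Neat1 and was counted on 5021 own bases of the 6983 bases of its longest transcript. Its other bases were shared with 3 shorter Malat1 transcripts or with antisense annotations such as Gm37376. Rn7sk (ENSMUSG00000065037.1, chr9:78175303-78175633, minus strand) has 1 exon of 331 bases, all its own. Gm26917 (ENSMUSG00000097971.3, chr17:39843013-39846341, plus strand) was counted on 2460 own bases of its 3329 bases.

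**Figure D1:**
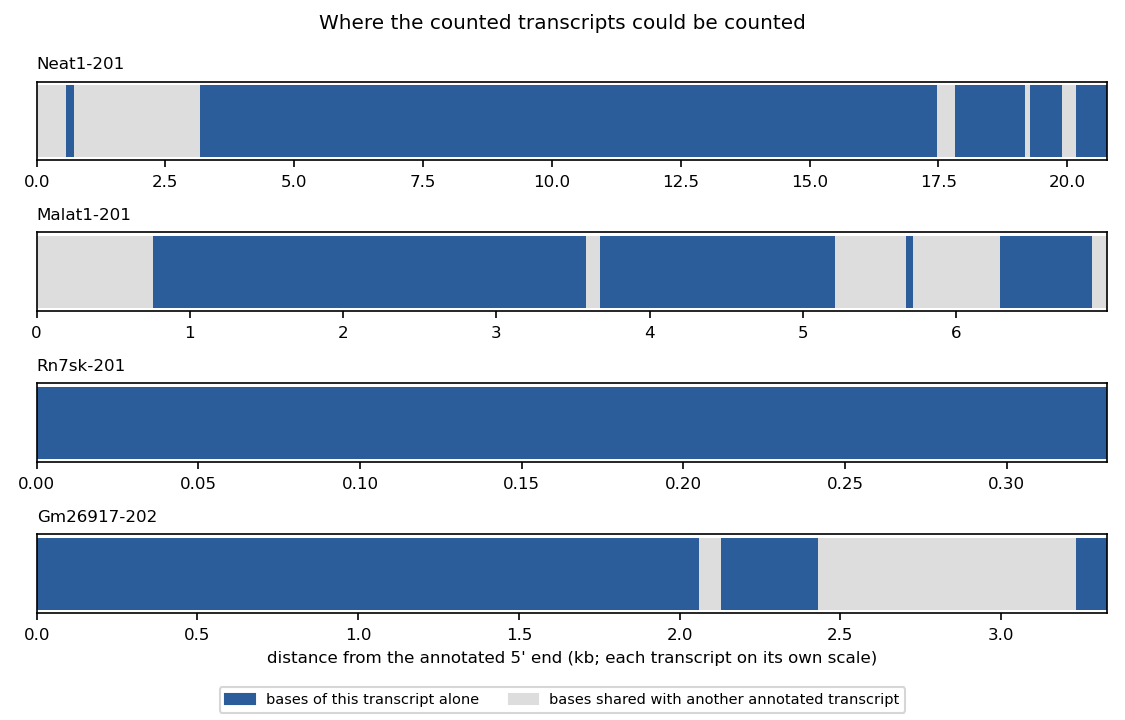
Stretches of the 4 counted transcripts that belong to no other annotated transcript on either strand (blue) and stretches that are shared (grey), by distance from the annotated 5′ end in kb. In Neat1 nearly all blue bases lie after the first 3.17 kb, where the short isoform has ended, and all 331 bases of Rn7sk are blue.

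The 3′ ends of Malat1 and Neat1 are shown because they carry the element that the pair shares and that few other RNAs have. Both stretches are from GENCODE M21 transcripts on GRCm38, minus strand, 5′ to 3′. Capitals mark 2 U-rich motifs (written with T) and the A-rich tract with which they are known to form the triple helix.
Malat1 (chr19:5795982-5796073): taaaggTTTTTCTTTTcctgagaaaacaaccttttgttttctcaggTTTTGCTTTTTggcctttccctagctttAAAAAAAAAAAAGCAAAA
Neat1 (chr19:5824708-5824805): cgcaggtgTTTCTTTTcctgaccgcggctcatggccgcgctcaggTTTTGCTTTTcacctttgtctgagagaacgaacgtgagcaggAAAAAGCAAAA
The Neat1 annotation stops at this tract, with 0 further bases, whereas the Malat1 annotation runs on for another 292 bases, past the known RNase P cut and over the tRNA-like part. The motifs TTTCTTTT, TTTGCTTTT and AAAGCAAAA in this order, with at most 60 bases between neighbours and no overlap, were searched on the transcript strand of 141441 transcripts. They were found in 2 of 55180 genes (0.00362%), Malat1 and Neat1. The motifs were read from these 2 sequences, so this is a description of how rare the arrangement is in annotated transcripts.

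The 5′ end of 7SK is shown because it holds the HEXIM-binding hairpin, with each GATC (GAUC in the RNA) in capitals.
Rn7sk (chr9:78175514-78175633): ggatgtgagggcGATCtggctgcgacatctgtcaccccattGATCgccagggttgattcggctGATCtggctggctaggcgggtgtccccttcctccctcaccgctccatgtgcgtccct
The motif reads the same on both strands and stands at positions 13, 42 and 64 from the 5′ end. At least 3 such motifs in the first 120 bases were found in 0.521% of 137039 transcripts of that length or more.

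The junction of Gm26917 with its neighbour is shown because it places this RNA beside ribosomal RNA. The last 60 bases of Gm26917 and the first 60 bases of the neighbouring annotation CT010467.1, both read on the plus strand of chromosome 17, are as follows.
Gm26917 (chr17:39846282-39846341): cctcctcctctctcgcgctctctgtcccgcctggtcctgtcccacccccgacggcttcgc
CT010467.1 (chr17:39846353-39846412): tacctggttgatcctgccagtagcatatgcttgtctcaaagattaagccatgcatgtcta
The 2 annotations are 11 bases apart. CT010467.1 (chr17:39846353-39848201) is annotated as a ribosomal RNA on the minus strand, and RefSeq's Rn18s-rs5, a small-subunit ribosomal RNA gene, lies at chr17:39846354-39848202 of GRCm38.p6. The second line is the start of small-subunit ribosomal RNA as textbooks give it, so the ribosomal sequence runs on the strand of Gm26917. In a ribosomal RNA unit the external transcribed spacer precedes it.

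Levels differed by orders of magnitude. Rn7sk held 2.45% to 6.6% of all counts of a library and Gm26917 held 1.62% to 5.72%, and each ranked between 1 and 3 among all genes in every library. Malat1 held 0.359% to 1.16% and ranked between 4 and 19. These shares and ranks rest on own bases. Genes whose transcripts share many bases are therefore undercounted beside Rn7sk, whose bases are all its own. Neat1 held 0.00546% to 0.0348% and ranked between 511 and 2561, so on own bases it was not among the most abundant RNAs. Per kb of own bases the medians over 12 libraries were 139272 CPM for Rn7sk, 15327 CPM for Gm26917, 1084 CPM for Malat1 and 11.5 CPM for Neat1. Together the 4 RNAs took 6.54% to 11.5% of the counts of a library. Since these are bulk fractions, fewer cells with an RNA and less of it per cell cannot be told apart.

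Lack of overlap between 2 groups of 2 is common in these libraries. Of all 19384 tested genes, 54.9% did not overlap in CPM between tbGFP-positive and tbGFP-negative cells at 0 h, 49.6% at 6 h and 64.9% at 24 h. For 6 h and 24 h against 0 h the shares were 38% and 43% in tbGFP-positive cells and 57.1% and 56.1% in tbGFP-negative cells. Of these 7 comparisons, Neat1 did not overlap in 6, Malat1 in 3, Rn7sk in 6 and Gm26917 in 2. Against such shares, lack of overlap in 1 comparison does not set an RNA apart.

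Neat1 was lower in tbGFP-positive than in tbGFP-negative cells at all 3 times and highest at 6 h of sorbitol in both fractions. At 0 h it had 54.6 and 62.6 CPM in tbGFP-positive libraries, against 197 and 157 CPM in tbGFP-negative libraries. At 6 h it had 241 and 273 CPM in tbGFP-positive libraries, against 275 and 348 CPM in tbGFP-negative libraries. At 24 h it had 82.9 and 104 CPM in tbGFP-positive libraries, against 197 and 201 CPM in tbGFP-negative libraries. The 2 fractions did not overlap at any of the 3 times, although at 6 h the highest positive library and the lowest negative one lay close together. Group means were 58.6 ± 5.62 CPM at 0 h, 257 ± 22.5 CPM at 6 h and 93.4 ± 14.8 CPM at 24 h in tbGFP-positive cells (SD, n = 2 each). In tbGFP-negative cells they were 177 ± 28.5 CPM, 311 ± 51.6 CPM and 199 ± 2.86 CPM at the same times (SD, n = 2 each).

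**Figure D2:**
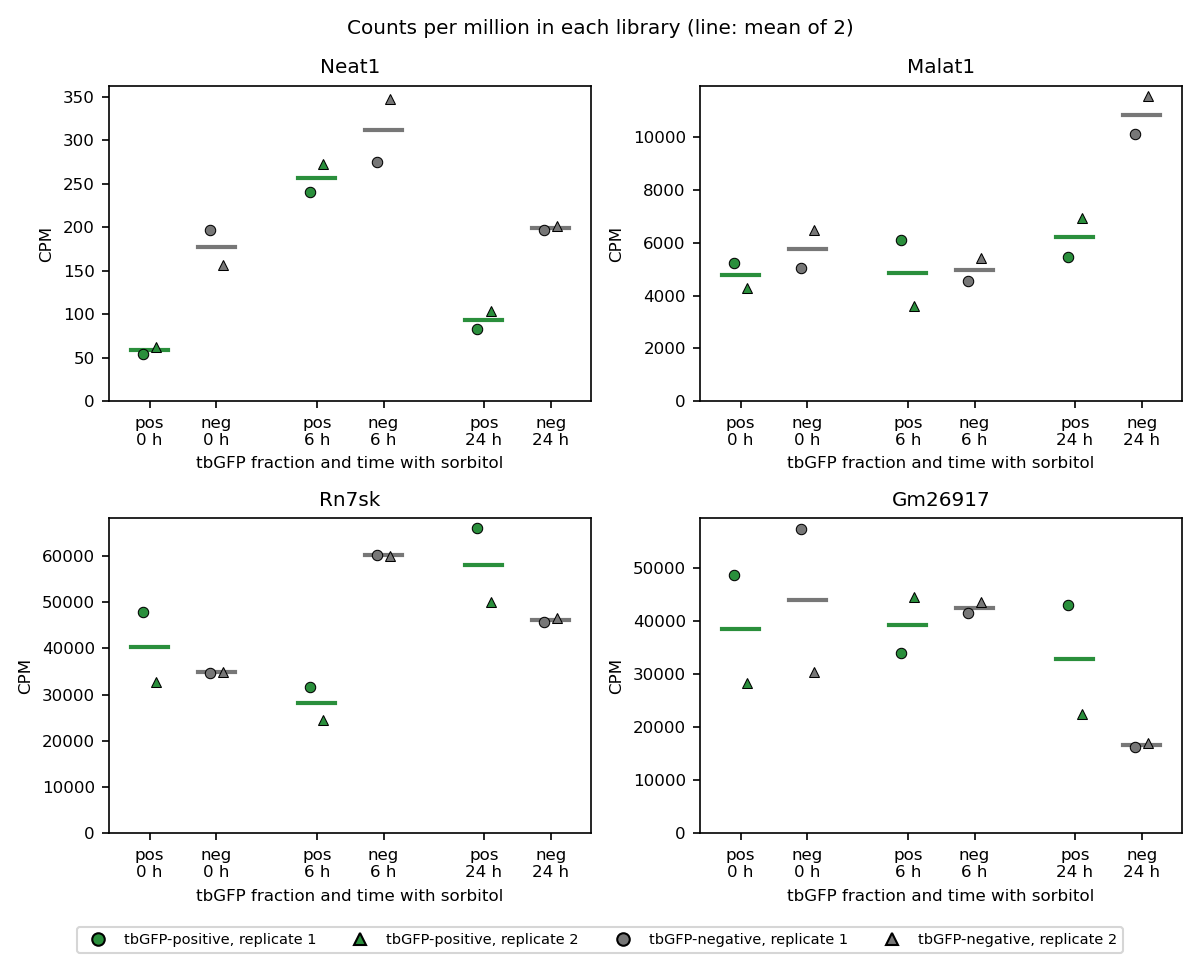
CPM of the 4 RNAs in each of the 12 libraries, by tbGFP fraction and hours with sorbitol, with circles for replicate 1, triangles for replicate 2 and lines for the mean of 2. Neat1 is lowest in tbGFP-positive cells at 0 h (54.6 and 62.6 CPM), and Rn7sk at 6 h is lower in tbGFP-positive than in tbGFP-negative cells.

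From lowest to highest mean, the Neat1 groups were tbGFP-positive at 0 h, tbGFP-positive at 24 h, tbGFP-negative at 0 h, tbGFP-negative at 24 h, tbGFP-positive at 6 h and tbGFP-negative at 6 h. Only tbGFP-negative cells at 0 h and 24 h overlapped among neighbours in that order. The ratio of means was 4.39 for 6 h over 0 h in tbGFP-positive cells and 1.76 in tbGFP-negative cells. At 24 h over 0 h it was 1.59 in tbGFP-positive cells, with no overlap, and 1.12 in tbGFP-negative cells, with overlap. The quotient of tbGFP-positive over tbGFP-negative means was 0.33 at 0 h, 0.83 at 6 h and 0.47 at 24 h.

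The edgeR fit scales libraries by TMM factors in addition to their totals. Fitted log2 fold changes of Neat1 in tbGFP-positive over tbGFP-negative cells were -1.15 ± 0.19 at 0 h, -0.24 ± 0.18 at 6 h and -0.67 ± 0.19 at 24 h (SE). At 6 h over 0 h they were 2.07 ± 0.19 in tbGFP-positive cells and 1.16 ± 0.19 in tbGFP-negative cells. At 24 h over 0 h they were 0.60 ± 0.19 in tbGFP-positive cells and 0.11 ± 0.19 in tbGFP-negative cells, and the sign of the last turned with upper-quartile factors (-0.07) and without the filter or on the compared groups alone (-0.02 each). With any 1 library left out, the change at 6 h over 0 h in tbGFP-positive cells stayed between 1.87 and 2.08. Scaling by library totals alone moved the median of all genes to -0.41 in tbGFP-positive over tbGFP-negative cells at 0 h and to -0.48 at 24 h, against 0.00 and -0.05 with TMM factors. Directions of the 4 RNAs that depend on the scaling are named below. Calls among all genes shifted as well, with 1291 higher and 87 lower in tbGFP-positive cells at 0 h under TMM factors and 1078 and 811 under library totals alone. At 24 h these counts were 1037 and 22 under TMM factors and 884 and 422 under library totals alone, and at 6 h they were 1342 and 1012 under TMM factors and 1182 and 2454 under upper-quartile factors. In tbGFP-negative cells at 6 h over 0 h they were 625 and 235 under TMM factors and 339 and 576 under library totals alone, and at 24 h over 0 h 524 and 250 under TMM factors and 412 and 408 under upper-quartile factors. In tbGFP-positive cells at 24 h over 0 h they were 59 and 48 under TMM factors and 68 and 28 under library totals alone.

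**Figure D3:**
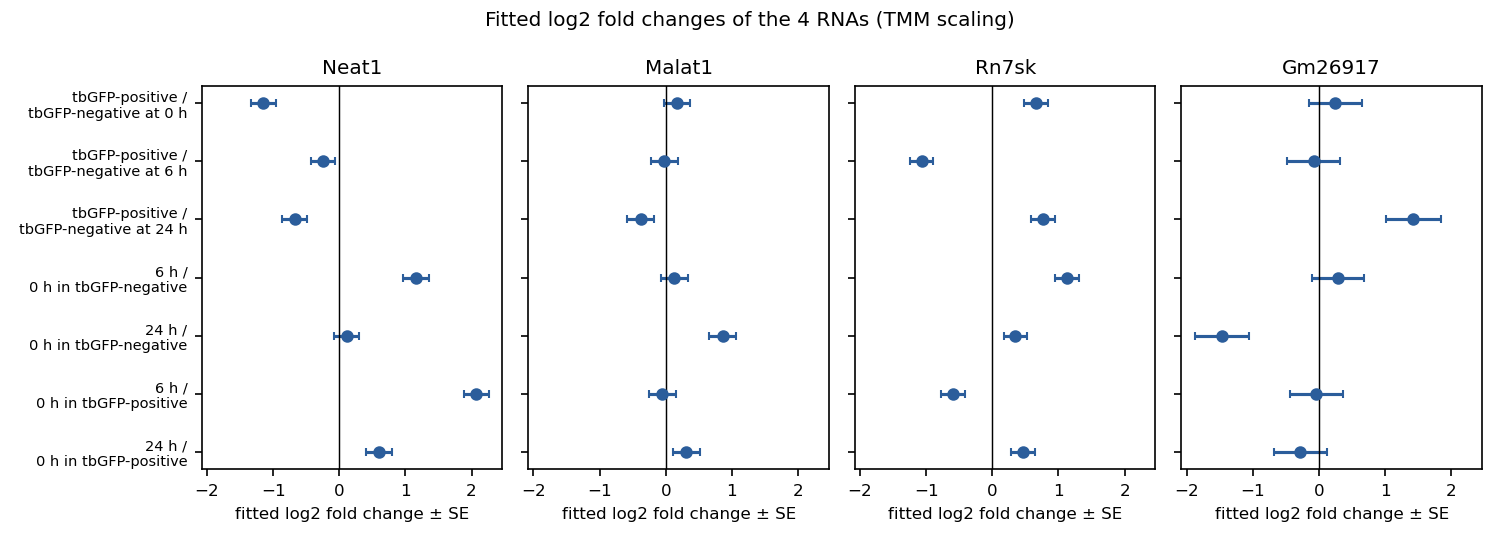
Fitted log2 fold changes with their SE for the 4 RNAs in the 7 comparisons, with the group before the slash over the group after it and TMM scaling. Neat1 lies right of 0 at 6 h in both fractions (2.07 and 1.16), whereas Rn7sk lies left of 0 in tbGFP-positive cells (-0.60) and right of it in tbGFP-negative cells (1.13).

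Among 6888 other tested genes with a mean log2 CPM of at least 3, the 3 whose log2 CPM was most like that of Neat1 over the 12 libraries were Zmat3 (Pearson r = 0.975), Luc7l3 (0.957) and Aebp2 (0.943). Zmat3 encodes an RNA-binding zinc finger protein known as a p53 target, Luc7l3 a splicing factor and Aebp2 a subunit of polycomb repressive complex PRC2. Zmat3 had 5.74 and 4.81 CPM in tbGFP-positive libraries, against 24.7 and 17.9 CPM in tbGFP-negative libraries at 0 h. At 6 h it had 29.3 and 27.5 CPM in tbGFP-positive libraries, against 46.5 and 49.4 CPM in tbGFP-negative libraries. Like Neat1, it was lowest in tbGFP-positive libraries at 0 h and highest in tbGFP-negative libraries at 6 h. These r values are the top of a ranking over libraries that share groups, and are given as a description.

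The paraspeckle protein genes were tested across all genes, with calls at an adjusted p below 0.05 (edgeR quasi-likelihood test, Benjamini-Hochberg). This list and the other partner lists below, 7 in all, were chosen with earlier results of these data known. Their calls, and their shares beside those of all genes, are therefore descriptions and no independent support. Of 24 listed genes, 21 passed the filter on low counts. At 6 h over 0 h, tbGFP-positive cells had 4 of 21 higher and 0 lower, where 2.14% of all genes were called higher and 3.76% lower. In tbGFP-negative cells 3 of 21 were higher and 0 lower, where 3.22% of all genes were called higher and 1.21% lower. Pspc1, a core paraspeckle protein, had 97.5 and 54.9 CPM at 6 h, against 27.7 and 23.6 CPM at 0 h in tbGFP-positive cells. In tbGFP-negative cells it had 63.2 and 56.9 CPM at 6 h, against 29.1 and 35.8 CPM at 0 h. The libraries at 6 h lay above those at 0 h in both fractions, and both calls passed (log2 fold change 1.48 ± 0.29, adjusted p = 0.0104 and 1.23 ± 0.29, adjusted p = 0.0244, edgeR). They held in 18 of 20 and 13 of 21 alternatives, the second being lost under library totals alone and in 7 fits without 1 library.

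Of the other 2 core genes, Nono was higher at 6 h in tbGFP-negative cells (0.63 ± 0.17, adjusted p = 0.0478, edgeR), a call that held in 4 of 21 alternatives, and had a log2 fold change of 0.14 in tbGFP-positive cells, which was not called. Sfpq had 0.39 and 0.54 in tbGFP-positive and tbGFP-negative cells, neither of them called. Nudt21, a cleavage factor known to take part in the choice between the Neat1 isoforms, was higher at 6 h in both fractions (0.82 ± 0.22 in tbGFP-positive and 0.97 ± 0.22 in tbGFP-negative cells), calls that held in 4 of 20 and 16 of 21 alternatives. Srsf10 (1.21 ± 0.28) and Matr3 (1.11 ± 0.27) were the other genes of the list called in tbGFP-positive cells, and these calls held in 12 and 10 of 20 alternatives. The median of the list at 6 h over 0 h was 0.14 in tbGFP-positive cells and 0.37 in tbGFP-negative cells, against -0.05 and 0.05 over all genes.

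At 24 h over 0 h, 0 of 21 paraspeckle protein genes were called in tbGFP-positive cells by edgeR or DESeq2 (4 had an unadjusted p below 0.05), where 0.304% of all genes were called higher and 0.248% lower. Matr3 alone was higher in tbGFP-negative cells (1.28 ± 0.27, adjusted p = 0.0116, edgeR), where 2.7% of all genes were called higher and 1.29% lower. Between the fractions the only call in this list was Ewsr1, an RNA-binding protein of the FET family, which was lower in tbGFP-positive cells at 6 h (-0.91 ± 0.26, adjusted p = 0.0323, edgeR, held in 16 of 20 alternatives). Of all genes, 6.92% were called higher and 5.22% lower in that comparison, 6.66% and 0.449% at 0 h, and 5.35% and 0.113% at 24 h. At 0 h, where Neat1 differed in level between the fractions, 0 of 21 of these genes were called by edgeR or DESeq2 and 3 had an unadjusted p below 0.05.

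Malat1 was highest in tbGFP-negative cells at 24 h, and the other 10 libraries ran from 3587 to 6960 CPM. With 0 h of sorbitol Malat1 had 5228 and 4292 CPM in tbGFP-positive libraries, against 5049 and 6490 CPM in tbGFP-negative libraries. With 6 h it had 6109 and 3587 CPM in tbGFP-positive libraries, against 4557 and 5407 CPM in tbGFP-negative libraries. With 24 h it had 5477 and 6960 CPM in tbGFP-positive libraries, against 10134 and 11550 CPM in tbGFP-negative libraries. The fractions overlapped at 0 h and 6 h and separated at 24 h, when tbGFP-negative cells averaged 10842 ± 1002 CPM and tbGFP-positive cells 6219 ± 1049 CPM (SD, n = 2 each).

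The mean of tbGFP-negative cells at 24 h was 1.88 times that at 0 h, with no overlap, and that of tbGFP-positive cells was 1.31 times, also with no overlap. The other neighbours in the order of group means all overlapped. Fitted log2 fold changes at 24 h over 0 h were 0.31 ± 0.20 in tbGFP-positive cells and 0.86 ± 0.20 in tbGFP-negative cells. In tbGFP-positive over tbGFP-negative cells they were 0.17 ± 0.20 at 0 h, -0.02 ± 0.20 at 6 h and -0.38 ± 0.20 at 24 h. The sign at 0 h turned under library totals alone (-0.28) and upper-quartile factors (-0.21), and that at 6 h turned under RLE factors and DESeq2 (0.06 each) and on the compared groups alone (0.03). At 6 h over 0 h they were -0.05 ± 0.20 in tbGFP-positive cells (0.03 under library totals alone) and 0.13 ± 0.20 in tbGFP-negative cells (-0.21 under library totals alone).

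Over the 12 libraries, log2 CPM of Malat1 and of its neighbour Neat1 had a Pearson r of 0.08, given as a description. Within 200 kb of either gene lie 21 other protein-coding genes, of which 16 were tested. In the 7 comparisons between groups, calls among them were Slc25a45, higher in tbGFP-positive than in tbGFP-negative cells at 6 h (2.13 ± 0.64, adjusted p = 0.0419, edgeR), and 1 of the 2 overlapping genes annotated as Sssca1, higher at 6 h than at 0 h. The called one changed by 2.21 ± 0.59 in tbGFP-positive cells (adjusted p = 0.0399, edgeR) and by 2.87 ± 0.59 in tbGFP-negative cells (adjusted p = 0.011, edgeR). The other had 0.19 and 0.55 in the same comparisons, neither of them called, and how reads were split between these 2 overlapping genes is uncertain. Each was 1 of 16 tested genes. Of all genes, 6.92% were called higher between fractions at 6 h. At 6 h over 0 h, 2.14% were called higher in tbGFP-positive and 3.22% in tbGFP-negative cells. The Slc25a45 call and the Sssca1 call in tbGFP-positive cells rest on the libraries at 6 h that stood apart. Neighbours' medians in the 7 comparisons lay between -0.65 and 0.53, against -0.07 to 0.23 over all genes.

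The genes most like Malat1 were Prtg (r = 0.886), Hip1 (0.885) and Slc7a6 (0.875), which encode an immunoglobulin-like membrane protein of the early embryo, an endocytic adaptor and an amino acid transporter. As for Malat1, the tbGFP-negative libraries at 24 h were the highest of all 12 for each, with Prtg at 76.8 and 85.8 CPM, against 46.9 and 47.6 CPM in tbGFP-negative libraries at 0 h.

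All 19 listed nuclear speckle protein genes were tested. At 24 h over 0 h in tbGFP-negative cells, where Malat1 was highest, 2 of 19 were higher and 0 lower, beside 2.7% and 1.29% of all genes: Son, the scaffold protein of nuclear speckles (1.01 ± 0.26, adjusted p = 0.0432, edgeR), and Sf3b1, a U2 snRNP subunit (0.56 ± 0.14, adjusted p = 0.0426, edgeR). These calls held in 7 and 6 of 21 alternatives. At 6 h over 0 h, tbGFP-positive cells had 3 of 19 higher and 3 lower, beside 2.14% and 3.76% of all genes. The tbGFP-negative cells had 4 of 19 higher and 0 lower, beside 3.22% and 1.21% of all genes. Srsf6, an SR splicing factor, had 358 and 541 CPM at 6 h, against 151 and 216 CPM at 0 h in tbGFP-positive cells. In tbGFP-negative cells it had 730 and 671 CPM at 6 h, against 262 and 271 CPM at 0 h.

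The groups of Srsf6 did not overlap in either fraction, and the changes were 1.23 ± 0.21 (adjusted p = 0.00459, edgeR) and 1.74 ± 0.21 (adjusted p = 0.000249, edgeR). Alyref, an mRNA export adaptor, was higher in both fractions too (1.68 ± 0.28 in tbGFP-positive and 1.82 ± 0.28 in tbGFP-negative cells). The 2 strongest decreases in tbGFP-positive cells at 6 h were Srrm2 (-3.44 ± 0.71), a speckle core protein, and Acin1 (-3.16 ± 0.69), a splicing-dependent complex component. Both were measured in the libraries that stood apart, and the calls held in 19 and 18 of 20 alternatives. Between the fractions, Rbm25, a splicing regulator, was higher in tbGFP-positive cells at 0 h (1.27 ± 0.17, adjusted p = 9.29e-05, edgeR) and 24 h (1.10 ± 0.17, adjusted p = 0.000435, edgeR), with 324 and 313 CPM in tbGFP-positive and 166 and 191 CPM in tbGFP-negative libraries at 0 h. At 6 h, Acin1 (-2.45 ± 0.69, held in 11 of 20 alternatives) and Pnn (-0.72 ± 0.19), a desmosome- and speckle-associated protein, were lower in tbGFP-positive cells.

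Genes for RNase P and other 3′ end processing of RNA, 8 of 11 tested, had calls for Rpp38 and Mettl16. In each comparison named here 1 of 8, or 12.5%, was called lower. Of all genes, 0.449% and 5.22% were called lower between fractions at 0 h and 6 h. At 6 h over 0 h the shares were 3.76% in tbGFP-positive and 1.21% in tbGFP-negative cells. Rpp38, a protein subunit of RNase P and RNase MRP, was lower at 6 h than at 0 h in tbGFP-positive cells (-1.62 ± 0.38, adjusted p = 0.0244, edgeR) and in tbGFP-negative cells (-2.25 ± 0.38, adjusted p = 0.00342, edgeR). Mettl16, an RNA methyltransferase that binds the Malat1 triple helix, was lower in tbGFP-positive than in tbGFP-negative cells at 0 h (-0.67 ± 0.16, adjusted p = 0.0148, edgeR) and at 6 h (-0.76 ± 0.16, adjusted p = 0.00546, edgeR). The other 6 genes of this list were not called in any of the 7 comparisons.

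Rn7sk moved in opposite directions in the 2 fractions at 6 h. Its level at 0 h was 47909 and 32806 CPM in tbGFP-positive libraries, against 34685 and 34922 CPM in tbGFP-negative libraries. The level at 6 h was 31654 and 24505 CPM in tbGFP-positive libraries, against 60169 and 59949 CPM in tbGFP-negative libraries. The level at 24 h was 66016 and 50028 CPM in tbGFP-positive libraries, against 45591 and 46607 CPM in tbGFP-negative libraries. Both tbGFP-positive libraries at 6 h lay below every other library, and both tbGFP-negative libraries at 6 h lay above every other one except tbGFP-positive replicate 1 at 24 h.

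Replicates of tbGFP-negative cells were close, with means of 34804 ± 167 CPM at 0 h, 60059 ± 156 CPM at 6 h and 46099 ± 718 CPM at 24 h (SD, n = 2 each). Those of tbGFP-positive cells were 40357 ± 10680 CPM, 28080 ± 5055 CPM and 58022 ± 11305 CPM (SD, n = 2 each). The mean at 6 h was 0.70 of that at 0 h in tbGFP-positive cells and 1.73 times that at 0 h in tbGFP-negative cells, and neither pair of groups overlapped. From lowest to highest mean, the groups were tbGFP-positive at 6 h, tbGFP-negative at 0 h, tbGFP-positive at 0 h, tbGFP-negative at 24 h, tbGFP-positive at 24 h and tbGFP-negative at 6 h. In this order tbGFP-positive cells at 0 h overlapped with both of their neighbours, and tbGFP-positive cells at 24 h overlapped with tbGFP-negative cells at 6 h.

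For Rn7sk the fitted log2 fold changes at 6 h over 0 h were -0.60 ± 0.18 in tbGFP-positive cells and 1.13 ± 0.18 in tbGFP-negative cells, and at 24 h over 0 h they were 0.46 ± 0.18 and 0.35 ± 0.18. In tbGFP-positive over tbGFP-negative cells they were 0.66 ± 0.18 at 0 h, -1.07 ± 0.18 at 6 h and 0.77 ± 0.18 at 24 h. All 7 kept their sign under every scaling and with any 1 library left out. At 0 h library totals alone gave 0.21 in place of 0.66. The 2 tbGFP-positive libraries at 6 h are among those that stood apart, and with either one left out the change at 6 h over 0 h in tbGFP-positive cells stayed between -0.95 and -0.36, the range over all libraries left out in turn.

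Near-identical copies limit how 7SK reads can be placed. Of annotated transcripts, 32 matched Rn7sk with at least 80% identity over at least 200 bases (BLASTN), 18 of them had counts, and their counts summed to 1.91% to 3.54% of those of Rn7sk. The 2 genes most like Rn7sk over the libraries were such copies, Gm24447 (r = 0.966; 100% identity over 241 bases) and Gm26315 (r = 0.956; 100% over 235 bases), and the part of shared reads in this likeness was not tested. Gm24447 had 430 and 407 CPM in tbGFP-positive libraries at 6 h, against 1381 and 1003 CPM in tbGFP-negative libraries. Next came Spata2 (r = 0.894), which encodes an adaptor of TNF receptor signalling.

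Of 26 listed genes of the 7SK particle, P-TEFb and its elongation factors, 23 were tested. Hexim1, the inhibitor that 7SK presents to P-TEFb, was higher in tbGFP-positive than in tbGFP-negative cells at all 3 times. At 0 h it had 330 and 217 CPM in tbGFP-positive libraries, against 192 and 179 CPM in tbGFP-negative libraries. In the 6 h groups it had 694 and 491 CPM in tbGFP-positive libraries, against 247 and 273 CPM in tbGFP-negative libraries. In the 24 h groups it had 374 and 257 CPM in tbGFP-positive libraries, against 162 and 205 CPM in tbGFP-negative libraries. The fractions did not overlap at any time.

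The fitted differences of Hexim1 were 1.01 ± 0.25 at 0 h (adjusted p = 0.0201, edgeR), 1.21 ± 0.25 at 6 h (adjusted p = 0.00471, edgeR) and 1.22 ± 0.25 at 24 h (adjusted p = 0.00528, edgeR). The call at 0 h held in 16 of 21 alternatives and was lost under library totals alone and upper-quartile factors, without either tbGFP-negative library at 0 h, and without tbGFP-positive replicate 1 at 0 h. The highest adjusted p among them was 0.257. Those at 6 h and 24 h held in 18 of 20 and 18 of 21, and were lost without either tbGFP-negative library at 6 h, and without replicate 1 of either fraction at 24 h or under library totals alone.

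Nelfa, a subunit of the pausing factor NELF, was the other gene of this list called between fractions. It had 5424 and 4459 CPM in tbGFP-positive libraries, against 171 and 160 CPM in tbGFP-negative libraries at 0 h. Its 6 h values were 2274 and 2815 CPM in tbGFP-positive libraries, against 123 and 137 CPM in tbGFP-negative libraries. Its 24 h values were 5723 and 4095 CPM in tbGFP-positive libraries, against 279 and 249 CPM in tbGFP-negative libraries. The differences were 5.34 ± 0.22, 4.32 ± 0.21 and 4.65 ± 0.22 at the 3 times, and all 3 calls held in every alternative run. NELFA is known as a maternal factor that can drive the 2-cell-like state in mouse stem cells, and the fractions were sorted by a reporter of that state. At each of the 3 times 2 of 23 genes were higher (8.7%) and 0 lower, Hexim1 and Nelfa, near the 6.66%, 6.92% and 5.35% of all genes called higher at 0 h, 6 h and 24 h.

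At 6 h over 0 h, tbGFP-positive cells had 4 of 23 genes of this list higher and 1 lower, beside 2.14% and 3.76% of all genes. The tbGFP-negative cells had 5 of 23 higher and 0 lower, beside 3.22% and 1.21% of all genes. Mepce, which caps 7SK, had 111 and 270 CPM at 6 h, against 94.8 and 65.4 CPM at 0 h in tbGFP-positive cells. In tbGFP-negative cells it had 230 and 309 CPM at 6 h, against 125 and 127 CPM at 0 h. The changes were 1.19 ± 0.33 (adjusted p = 0.0473, edgeR), which held in 5 of 20 alternatives, and 1.44 ± 0.33 (adjusted p = 0.0213, edgeR), which held in 16 of 21. Jmjd6, a hydroxylase linked to the release of paused polymerase, was higher in both fractions (1.79 ± 0.29 and 1.97 ± 0.29).

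Cdk9 and Ccnt1, which encode subunits of P-TEFb, had higher counts on own bases at 6 h in tbGFP-negative cells. Cdk9 had 25.2 and 21 CPM at 6 h, against 9.98 and 9.95 CPM at 0 h (1.57 ± 0.40, adjusted p = 0.0387, edgeR, held in 9 of 21 alternatives), and Ccnt1 changed by 0.86 ± 0.16 (adjusted p = 0.00521, edgeR, held in 16 of 21). In tbGFP-positive cells Cdk9 (1.40) and Ccnt1 (0.48) were not called. Hexim1 was higher at 6 h in tbGFP-positive cells (1.04 ± 0.25, adjusted p = 0.027, edgeR, held in 11 of 20) and had 0.83 in tbGFP-negative cells, which was not called. Larp7, which binds the 3′ end of 7SK, had -0.03 in tbGFP-positive and 0.74 in tbGFP-negative cells and was not called in any of the 7 comparisons. Ppm1g, a phosphatase that frees P-TEFb from 7SK, was called higher in tbGFP-positive cells (3.72 ± 1.02, held in 9 of 20) and Nelfa lower (-1.03 ± 0.19, held in 19 of 20). At 24 h over 0 h, 0 of 23 were called in tbGFP-positive cells by edgeR or DESeq2 (3 had an unadjusted p below 0.05). Of all genes, 0.304% were called higher and 0.248% lower there, so few calls were made in any list. Aff4, a scaffold of the super elongation complex, was the 1 gene of 23 called in tbGFP-negative cells (-0.62 ± 0.15, adjusted p = 0.0268, edgeR). There 2.7% of all genes were called higher and 1.29% lower.

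**Figure D4:**
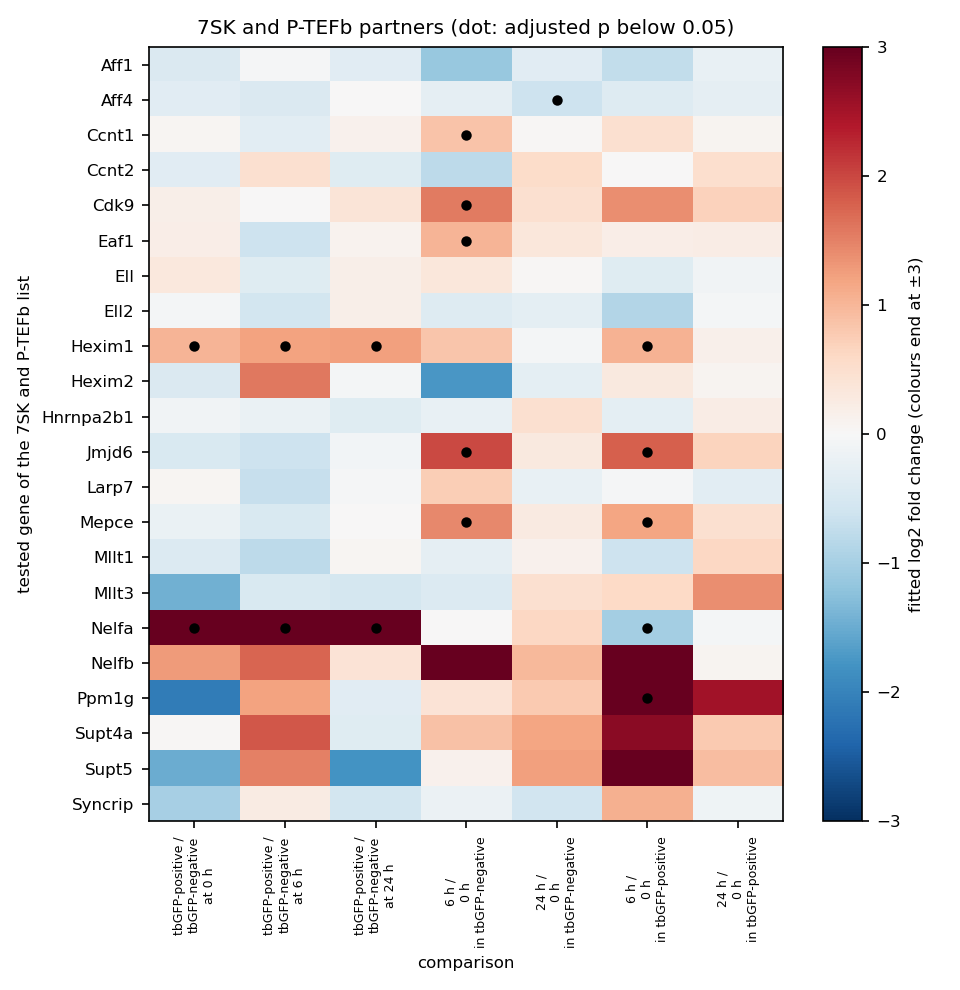
Fitted log2 fold changes of tested genes of the 7SK and P-TEFb list (rows) in 7 comparisons (columns, first group over second), with dots for an adjusted p below 0.05 and colours that end at ±3. Hexim1 and Nelfa carry dots in all 3 comparisons of the fractions, and most other dots lie at 6 h over 0 h.

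Factors that transcribe Rn7sk had 1 call by edgeR in the 7 comparisons. Of 20 listed RNA polymerase III subunits and 7SK promoter factors, 17 were tested. It was Snapc5, a subunit of the SNAPc promoter complex, higher in tbGFP-positive than in tbGFP-negative cells at 6 h (1.33 ± 0.32, adjusted p = 0.0132, edgeR, held in 16 of 20 alternatives). That is 5.88% of the list, near the 6.92% of all genes called higher in that comparison. There 4 of 17 had an unadjusted p below 0.05 (edgeR) and DESeq2 called 1. DESeq2 also called 1 gene of the list at 6 h over 0 h in tbGFP-positive cells, where edgeR called 0. The list's median at 6 h over 0 h was -0.42 in tbGFP-positive cells and -0.66 in tbGFP-negative cells, against -0.05 and 0.05 over all genes.

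Gm26917 varied as much between replicates as between most groups. At 0 h it had 48546 and 28204 CPM in tbGFP-positive libraries, against 57228 and 30403 CPM in tbGFP-negative libraries. At 6 h it had 33933 and 44561 CPM in tbGFP-positive libraries, against 41475 and 43455 CPM in tbGFP-negative libraries. At 24 h it had 43041 and 22541 CPM in tbGFP-positive libraries, against 16198 and 16981 CPM in tbGFP-negative libraries. The tbGFP-negative libraries at 24 h were the 2 lowest of all 12, and every other pair of neighbours in the order of means overlapped. Group SDs reached 44.2% of the mean.

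The mean of tbGFP-negative cells was 16590 ± 554 CPM at 24 h, or 0.38 of the 43816 ± 18968 CPM at 0 h (SD, n = 2 each). Fitted log2 fold changes were -1.46 ± 0.41 for that pair (-0.91 without tbGFP-negative replicate 1 at 0 h) and 1.43 ± 0.41 in tbGFP-positive over tbGFP-negative cells at 24 h. The other 5 comparisons gave -0.28 to 0.29, each less than its SE of 0.40. The sign turned under library totals alone in tbGFP-positive over tbGFP-negative cells at 0 h (0.25, against -0.19 under library totals alone and -0.15 under upper-quartile factors), 6 h over 0 h in tbGFP-negative cells (0.29 and -0.05) and 6 h over 0 h in tbGFP-positive cells (-0.04 and 0.03, and 0.05 with a replicate block). Over the 12 libraries Gm26917 and Malat1 ran in opposite directions (r of log2 CPM -0.81, as a description), and both shares come from the same library totals.

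Of 7 listed ribosomal RNA annotations 3 were tested, and in each of the 7 comparisons 0 were called by edgeR or DESeq2 and 0 had an unadjusted p below 0.05. Of those beside Gm26917, Gm42418 had 9 own bases and AY036118 had 0, and both are listed at 0. CT010467.1 had 605 own bases of 1849 and could be counted. CT010467.1 had 811 and 318 CPM in tbGFP-positive libraries, against 3907 and 525 CPM in tbGFP-negative libraries at 0 h. After 6 h it had 1125 and 404 CPM in tbGFP-positive libraries, against 1836 and 698 CPM in tbGFP-negative libraries. After 24 h it had 462 and 928 CPM in tbGFP-positive libraries, against 421 and 703 CPM in tbGFP-negative libraries. Gm26917 had 14.6 to 110 times the counts of CT010467.1, with 14.6 and 57.9 in the 2 tbGFP-negative libraries at 0 h, so the 2 annotations did not keep a fixed ratio even between replicates. The library kit is of a type that removes ribosomal RNA, and its part in these spreads was not tested.

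**Figure D5:**
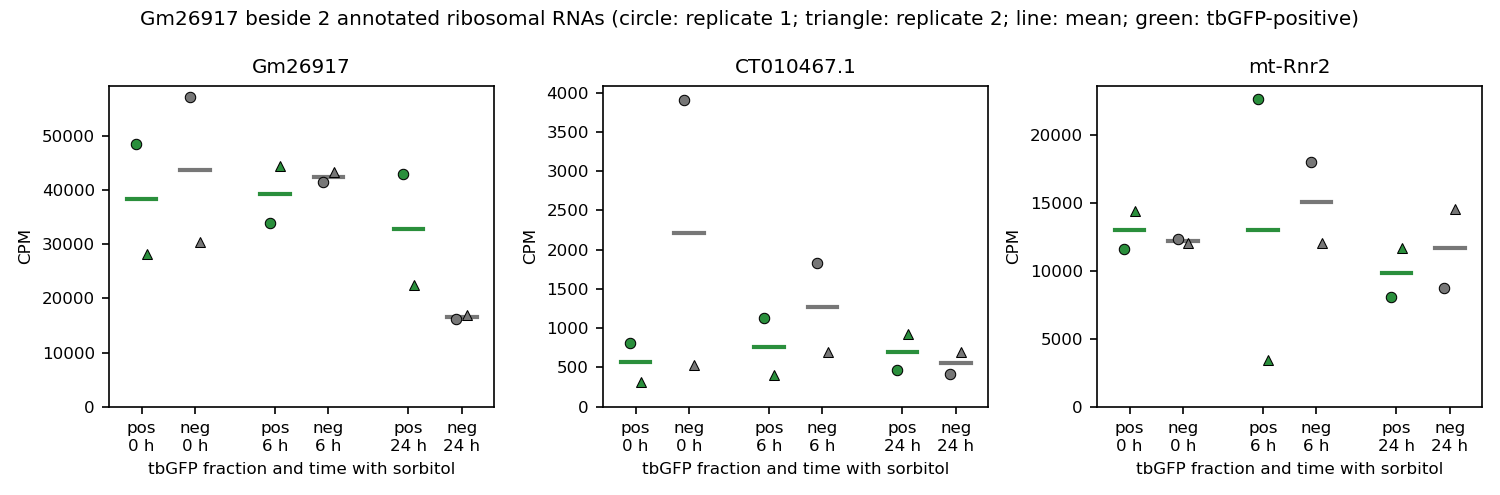
CPM of Gm26917, of the neighbouring ribosomal RNA annotation CT010467.1 and of the mitochondrial mt-Rnr2 in each library, by tbGFP fraction and hours with sorbitol, with lines for the mean of 2. Replicates of CT010467.1 at 0 h in tbGFP-negative cells lie at 3907 and 525 CPM, while Gm26917 in the same libraries is at 57228 and 30403 CPM.

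The genes most like Gm26917 were Polr2l (r = 0.947), a small subunit shared by the RNA polymerases, Igfbp2 (0.932), an insulin-like growth factor binding protein, and Rpl10l (0.926), a paralog of a ribosomal protein gene. Polr2l had 41.4 and 41 CPM in tbGFP-negative libraries at 24 h, against 116 and 102 CPM at 0 h.

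Of 21 other noncoding RNAs listed, 12 were tested. Gas5, a host of small nucleolar RNAs, had 156 and 146 CPM at 6 h, against 41.8 and 44.6 CPM at 0 h in tbGFP-positive cells. In tbGFP-negative cells it had 259 and 258 CPM at 6 h, against 81.1 and 88.6 CPM at 0 h. By 24 h it had 161 and 163 CPM in tbGFP-positive and 161 and 152 CPM in tbGFP-negative libraries. It was higher at 6 h in tbGFP-positive (1.74 ± 0.17, adjusted p = 9.7e-05, edgeR) and in tbGFP-negative cells (1.95 ± 0.17, adjusted p = 1.19e-05, edgeR), and at 24 h in tbGFP-positive (1.84 ± 0.17, adjusted p = 0.000178, edgeR) and in tbGFP-negative cells (0.83 ± 0.17, adjusted p = 0.00832, edgeR). The calls at 24 h held in 21 of 21 alternatives in tbGFP-positive cells and in 15 of 21 in tbGFP-negative cells.

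Rnu12, the U12 small nuclear RNA of the minor spliceosome, had 69.6 and 48.9 CPM at 6 h, against 8.2 and 3.72 CPM at 0 h in tbGFP-positive cells. In tbGFP-negative cells it had 74.2 and 64.5 CPM at 6 h, against 16.9 and 10.8 CPM at 0 h. The groups were far apart, with changes of 3.20 ± 0.42 (adjusted p = 0.00108, edgeR) and 2.71 ± 0.41 (adjusted p = 0.00155, edgeR). At 24 h it was lower than at 0 h in tbGFP-negative cells (-1.94 ± 0.43, adjusted p = 0.0179, edgeR). Kcnq1ot1, an imprinted antisense RNA, was lower at 6 h in tbGFP-positive (-0.70 ± 0.18) and in tbGFP-negative cells (-1.09 ± 0.18). The remaining calls over time were Lncenc1, lower at 6 h in tbGFP-positive cells (-1.36 ± 0.32), and, in tbGFP-negative cells, Firre (-2.31 ± 0.57 at 6 h, held in 13 of 21 alternatives), Xist (-1.49 ± 0.27 at 6 h and -1.09 ± 0.26 at 24 h) and Meg3 (-1.21 ± 0.21 at 24 h). The counts appear not to separate the strands, so antisense reads may be among those of Xist and the other RNAs named here.

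In tbGFP-positive over tbGFP-negative cells, Meg3 (-1.13 ± 0.21) and Xist (-1.23 ± 0.26) were lower at 0 h. Rny1, a Ro-binding RNA polymerase III product like 7SK, was higher at 6 h (4.06 ± 1.09) and at 24 h (4.73 ± 1.13), with 24.6 and 2.17 CPM in tbGFP-positive libraries, against 0.76 and 0.794 CPM in tbGFP-negative libraries at 6 h. These tbGFP-negative values stand on 5 and 4 counts, and the calls of Rny1 at 6 h and 24 h held in 14 of 20 and 17 of 21 alternatives. Tug1 was higher at 6 h (0.86 ± 0.18) and 24 h (0.66 ± 0.18), calls that held in 16 of 20 and 13 of 21 alternatives, and Gas5 was lower at 6 h (-0.75 ± 0.16). Rn7s1 and Rn7s2, RNAs of the signal recognition particle with near-identical copies, were not called in any of the 7 comparisons, and replicates of Rn7s1 reached 67.7 and 342 CPM in tbGFP-negative libraries at 0 h.

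Over all lists, the 7 comparisons between groups had 6, 10 and 5 of 103 tested partner genes called between fractions at 0 h, 6 h and 24 h, beside 1378, 2354 and 1059 of all 19384 genes, which are larger shares. They had 20 and 1 called at 6 h and 24 h over 0 h in tbGFP-positive cells, beside 1143 and 107 of all genes, and 18 and 8 in tbGFP-negative cells, beside 860 and 774. Over time the shares of all genes were thus the smaller ones. Without both tbGFP-positive libraries at 6 h, 17 in place of 6 were called between fractions at 0 h, 4 in place of 1 at 24 h over 0 h in tbGFP-positive cells, and 31 in place of 18 at 6 h over 0 h in tbGFP-negative cells. The calls over all genes were then 2455, 917 and 2542. Without tbGFP-positive replicate 2 at 0 h, 8 in place of 20 were called at 6 h over 0 h in tbGFP-positive cells. Without tbGFP-negative replicate 1 at 0 h, 3 in place of 6 were called between fractions at 0 h, and 7 in place of 18 and 1 in place of 8 at 6 h and 24 h over 0 h in tbGFP-negative cells. Whether the gap between fractions changed with time was tested for these genes as an interaction. At 6 h against 0 h, 0 of 103 genes were called by edgeR, 16 had an unadjusted p below 0.05 and DESeq2 called 1, Xist. Of all genes 0% were called with a higher and 0.17% with a lower gap. At 24 h against 0 h, 0 of 103 were called by edgeR, 3 had an unadjusted p below 0.05 and DESeq2 called 1, Gas5. Of all genes 0.0206% were called with a higher and 0.949% with a lower gap.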

How the data were processed

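RNA was measured in 12 libraries, 6 groups of 2, grouped by the labels. Per the labels' protocols, RNA of sorted cells went into a stranded total RNA kit. What the authors deposited are raw counts for Ensembl transcripts, as the file headers show. FastQC, HISAT2, featureCounts, DESeq2 and mm10 are named in the submitters' processing notes; their settings and versions are not given in the sources used here. The 142446 transcripts were matched to GENCODE M21 (GRCm38) by identifier: 910 did not match and were left out with 0.0606% to 0.0903% of counts. Sums per gene gave 55266 genes. Tests covered the 19384 genes that reached 10 counts in 2 or more libraries. CPM and percent use counts matched to genes, and 3 counts correspond to 0.38 to 1.3 CPM.

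edgeR 4.0.16 (R 4.3.3) fitted a mean per group over 12 libraries with TMM factors and robust quasi-likelihood, with Benjamini-Hochberg adjustment at 0.05. SE is the absolute log2 fold change over the square root of F. Alternatives were DESeq2 1.42.0, RLE, upper-quartile or no factors, totals and factors without the 4 genes and ribosomal RNA, no filter, a replicate block, fits on the compared groups alone, the transcript with the most counts per gene, and each library left out. Leaving out both tbGFP-positive libraries at 6 h was added after seeing the data. BLASTN was version 2.17.0. The 4 genes and 7 partner lists (128 symbols) were chosen with earlier results of these data known. Nono, Sfpq, Pspc1, Hexim1, Larp7, Mepce, Cdk9, Ccnt1, Gm42418, AY036118, Rn7s1 and Rn7s2 are always named and, per list and comparison, up to 2 calls a direction with the largest change, with others, where a list had few calls, named after their values were seen. Rmrp, which has 2 gene identifiers, was left out. Counts over the 7SK and P-TEFb list include 1 gene whose own values are not reported here. All columns were mapped to samples.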

Additional observations from a re-analysis of the deposited data

Results flagged for a closer look

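Rn7sk moved in opposite directions in the 2 fractions. Both tbGFP-positive libraries at 6 h lay below both at 0 h, and both tbGFP-negative libraries at 6 h lay above both at 0 h. In tbGFP-positive cells the gap was narrow, with 31654 CPM in replicate 1 at 6 h and 32806 CPM in replicate 2 at 0 h. Both tbGFP-positive libraries at 6 h, and 1 library of each fraction at 0 h, are among those that stood apart. Of all genes, 38% did not overlap in this comparison in tbGFP-positive cells and 57.1% in tbGFP-negative cells. The fitted gap between fractions, tbGFP-positive over tbGFP-negative, changed by -1.73 on the log2 scale at 6 h against 0 h. This difference was not tested, because the gene was chosen with its levels known.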

How the results depend on the processing

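The numbers of partner genes called, 6, 10 and 5 in tbGFP-positive over tbGFP-negative cells at 0 h, 6 h and 24 h, depended on the scaling. Upper-quartile factors gave 11 at 0 h and 28 at 6 h, and library totals alone gave 13 at 0 h and 14 at 24 h. No filter on low counts gave 18 at 6 h. Fits on the compared groups alone gave 10, 2 and 12 at the 3 times. They gave 42 in place of 18 at 6 h over 0 h in tbGFP-negative cells, 25 in place of 8 at 24 h over 0 h there, and 0 in place of 20 at 6 h over 0 h in tbGFP-positive cells. DESeq2 gave 2 in place of 1 at 24 h over 0 h in tbGFP-positive cells. Without both tbGFP-positive libraries at 6 h, an alternative chosen after seeing the data, the counts were 17 at 0 h between fractions, 31 at 6 h over 0 h in tbGFP-negative cells and 4 at 24 h over 0 h in tbGFP-positive cells. For the change of the gap at 6 h, in place of 0, no filter gave 2 and DESeq2 gave 1. For that at 24 h, RLE factors, upper-quartile factors, totals without the 4 RNAs and ribosomal RNA, DESeq2, the compared groups alone and leaving out both tbGFP-positive libraries at 6 h gave 1 each. The cause of these shifts was not tested.

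With each library left out in turn, the counts between fractions ranged from 3 to 17 at 0 h, 3 to 30 at 6 h and 2 to 7 at 24 h. They ranged from 8 to 37 at 6 h and 1 to 4 at 24 h over 0 h in tbGFP-positive cells, and from 4 to 30 and 1 to 11 in tbGFP-negative cells. For the gap they ranged from 0 to 18 at 6 h and 0 to 1 at 24 h. Leaving out either tbGFP-positive library at 6 h gave 17 at 0 h. The labels do not say what the replicate numbers mark. Over 15 pairs of groups, differences between replicates 1 and 2 across the tested genes correlated at -0.040 to 0.030. This describes the tested genes as a whole, and pairing by culture or batch was not tested. With the replicate block the counts were 6, 10 and 4 between fractions, 16 and 1 at 6 h and 24 h over 0 h in tbGFP-positive cells, 16 and 6 in tbGFP-negative cells, and 0 and 0 for the gap.

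In all but the cases named with them, and ranges below that cross 0, log2 fold changes of the 4 RNAs kept their direction. Between fractions, Neat1 moved to -1.54 at 0 h and -0.57 at 6 h under upper-quartile factors, and to -1.59 at 0 h and -1.09 at 24 h under library totals alone. Malat1 moved to -0.21 at 0 h under upper-quartile factors, and to -0.28 at 0 h and -0.80 at 24 h under library totals alone. Rn7sk moved to 0.21 at 0 h and 0.33 at 24 h under library totals alone, and to -1.41 at 6 h under upper-quartile factors, which gave -0.41 for Gm26917. At 6 h over 0 h in tbGFP-negative cells, library totals alone gave 0.82 for Neat1, -0.21 for Malat1 and 0.79 for Rn7sk. For Rn7sk there, RLE factors, no filter, DESeq2 and the compared groups alone gave 1.02, upper-quartile factors and totals without the 4 RNAs 1.08, and leaving out both tbGFP-positive libraries at 6 h 1.09. For Rn7sk at 24 h over 0 h in tbGFP-negative cells, RLE factors and DESeq2 gave 0.27, upper-quartile factors 0.16, library totals alone 0.41, totals without the 4 RNAs 0.25, no filter 0.22, the compared groups alone 0.20 and leaving out both tbGFP-positive libraries at 6 h 0.24.

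With each library left out, Neat1 ranged from -1.34 to -0.96 at 0 h, -0.44 to -0.16 at 6 h and -0.68 to -0.57 at 24 h between fractions, 1.87 to 2.08 and 0.47 to 0.70 at 6 h and 24 h over 0 h in tbGFP-positive cells, and 0.92 to 1.35 and -0.19 to 0.31 in tbGFP-negative cells. Malat1 ranged from 0.01 to 0.34, -0.46 to 0.28, -0.40 to -0.21, -0.55 to 0.19, 0.11 to 0.44, -0.05 to 0.24 and 0.65 to 0.90 in the same order. Rn7sk ranged from 0.34 to 0.94, -1.29 to -0.95, 0.49 to 1.10, -0.95 to -0.36, 0.15 to 0.75, 1.01 to 1.15 and 0.20 to 0.37. Gm26917 ranged from -0.22 to 0.80, -0.34 to 0.08, 0.81 to 1.96, -0.49 to 0.34, -0.90 to 0.16, -0.17 to 0.85 and -1.99 to -0.91. Counts under 10 per library, as for Rny1 in tbGFP-negative cells, limit what the depth can show.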
